A study of Mus musculus with 12 samples.

Results

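Angiopoietins, angiopoietin-like proteins and the Tie receptor system were followed through 8 genes: Angpt1, Angpt2, Angptl2, Angptl4, Angptl6, Tek, Tie1 and Ptprb. They were listed by name, with earlier results of these data known, and all 8 were found among the 24570 genes tested. For 7 of them the platform annotation gives the symbol. Angptl2 is not listed there, and its row was named through its Entrez gene identifier in RefSeq, a match that gave the same symbol for all 23922 rows present in both sources.

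The data were 12 Affymetrix array profiles of liver sinusoidal endothelial cells (LSECs), the fenestrated and highly endocytic lining of the liver's capillaries. They form 4 groups of 3 arrays: mice lacking Stab1 (Stab1KO), mice lacking Stab2 (Stab2KO), mice lacking both (DKO) and wild-type mice (WT). The products of both genes, the stabilins, are scavenger receptors of this endothelium. All mice were labelled as strain C57BL/6J and aged 3 to 4 months, the cells of all groups were taken from perfused livers with beads against CD146, and each array held RNA pooled from 3 mice, so the arrays show the spread between pools and not between mice. The sources used here do not give how the alleles were made, the sex of the mice or whether the groups were littermates, so a difference of colony cannot be told apart from genotype.

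The targeted genes followed the labels. Stab1 averaged 5.31 ± 0.14 log2 in Stab1KO and 5.23 ± 0.23 in DKO, against 12.53 ± 0.06 in Stab2KO and 12.54 ± 0.08 in WT (SD, n = 3 pools each). Stab2 averaged 6.81 ± 0.57 in Stab2KO and 6.65 ± 1.09 in DKO, against 13.05 ± 0.05 in WT. Of 10 pan-endothelial genes, 0 passed the test in any comparison with WT (limma, with 0, 1 and 2 at an unadjusted p under 0.05 in Stab1KO, Stab2KO and DKO). Of 14 genes of sinusoidal endothelium the targeted ones alone passed, while 10 had an unadjusted p under 0.05 in DKO. DKO replicate 3 stood apart: its 12 neutrophil genes averaged 11.73 log2, against 5.89 and 6.32 in the other DKO pools and 5.07 to 5.45 in WT, and its 10 pan-endothelial genes averaged 11.71, against 12.06 and 12.02. Immediate early genes, the transcripts that rise first after cell stimulation, had 6 of 22 called higher in DKO against WT (median 0.81). Bile duct epithelium had 4 of 7 called higher (median 1.27) and large-vessel endothelium 4 of 12 (median 0.68). None of these lists had a member called lower there. Of all 24570 genes, 185 were called higher and 258 lower in DKO against WT. In Stab1KO 0 genes of these lists were called by limma (0, 0 and 4 at an unadjusted p under 0.05), and in Stab2KO the large-vessel gene Gja5 was called higher. Besides the targeted genes, cell type genes called lower in DKO against WT came from the stellate and pericyte list and the hepatocyte list. The first, described below, had 11 of 18 called lower and 1 higher. The second had Ass1 alone, named after the call was seen (-2.6 ± 0.33, adjusted p = 0.00365).

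Angiopoietin-1 is the agonist ligand of the receptor tyrosine kinase Tie2, which Tek encodes, and it comes mainly from perivascular cells. Angiopoietin-2, made by endothelial cells, can block or weakly activate the same receptor. Tie1 is a related receptor without a classical ligand that pairs with Tie2, and Ptprb encodes VE-PTP, an endothelial phosphatase that removes phosphate from Tie2. The angiopoietin-like proteins share the secreted, fibrinogen-like build of the angiopoietins but do not bind Tie2. Angptl2 acts through integrins in inflammation and tissue remodelling, Angptl4 inhibits lipoprotein lipase, and Angptl6 is a circulating growth factor best known from the liver.

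Both Angptl2 and Angptl6 fell in each of the knockouts, and for this reason the stretch just upstream of each gene is shown, with that of Tie1, whose level passed no test. The sequences are RefSeq's for GRCm38.p6, which holds promoter windows for 4 of the 8 genes, read 5′ to 3′ along the gene and ending before its outermost annotated start. For Tek, 47 such bases were left and are not shown. Capitals mark matches on either strand to any of 7 motifs: TATAAA of the TATA box, CCAAT of the CCAAT box, GGGCGG of the GC box, TGANTCA of AP-1, CCGGAA of ETS factors, GGAATG of TEAD factors and GTAAACA of forkhead factors.
Angptl2, chr2:33215711-33215950, forward strand: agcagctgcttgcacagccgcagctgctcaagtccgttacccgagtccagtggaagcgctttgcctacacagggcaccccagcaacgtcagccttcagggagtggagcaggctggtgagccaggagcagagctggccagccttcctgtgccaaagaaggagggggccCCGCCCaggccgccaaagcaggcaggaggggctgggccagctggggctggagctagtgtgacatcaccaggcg
Angptl6, chr9:20879823-20879960, reverse strand: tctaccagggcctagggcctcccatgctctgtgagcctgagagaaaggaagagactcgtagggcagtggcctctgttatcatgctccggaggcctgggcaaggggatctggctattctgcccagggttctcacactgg
Tie1, chr4:118489850-118490099, reverse strand: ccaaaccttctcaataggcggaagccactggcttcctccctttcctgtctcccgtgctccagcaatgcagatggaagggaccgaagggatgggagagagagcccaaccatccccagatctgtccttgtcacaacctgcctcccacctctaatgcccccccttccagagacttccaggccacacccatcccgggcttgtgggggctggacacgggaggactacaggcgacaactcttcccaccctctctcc

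The Angptl2 stretch held 1 match, to GGGCGG on the reverse strand, a motif present in 31.3% of the 32851 RefSeq windows cut to the same 240 bases. The 138 bases of Angptl6 and the 250 bases of Tie1 held no match to any of the motifs, so Angptl2 and Angptl6 shared none of them. Shares of all windows cut to 138 bases ran from 1.85% for GTAAACA to 18.5% for CCAAT. All 3 stretches were richer in G and C than the median window of their length, with 65.8% for Angptl2 against 52.1%, 59.4% for Angptl6 against 50.7%, and 60.4% for Tie1 against 52.4%.

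Between genotypes, 2 of the 8 genes passed the test in each comparison with WT, and they were Angptl2 and Angptl6 each time. Both were lower in Stab1KO, in Stab2KO and in DKO, and 0 of the 8 rose. Calls were made below 0.05 after limma's p-values were adjusted over all genes tested. Of the whole set, 0.326% passed in Stab1KO against WT (0.293% lower), 0.301% in Stab2KO against WT (0.22% lower) and 1.8% in DKO against WT (1.05% lower). Because the 8 genes were chosen with earlier results of these data known, these shares are background and no measure of enrichment. The median log2 difference of the 8 genes was 0.01 in Stab1KO, -0.19 in Stab2KO and -0.11 in DKO, beside medians over all genes of 0.005, 0.006 and -0.023. These comparisons share the WT arrays, so the values of the knockouts are given side by side.

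**Figure D1:**
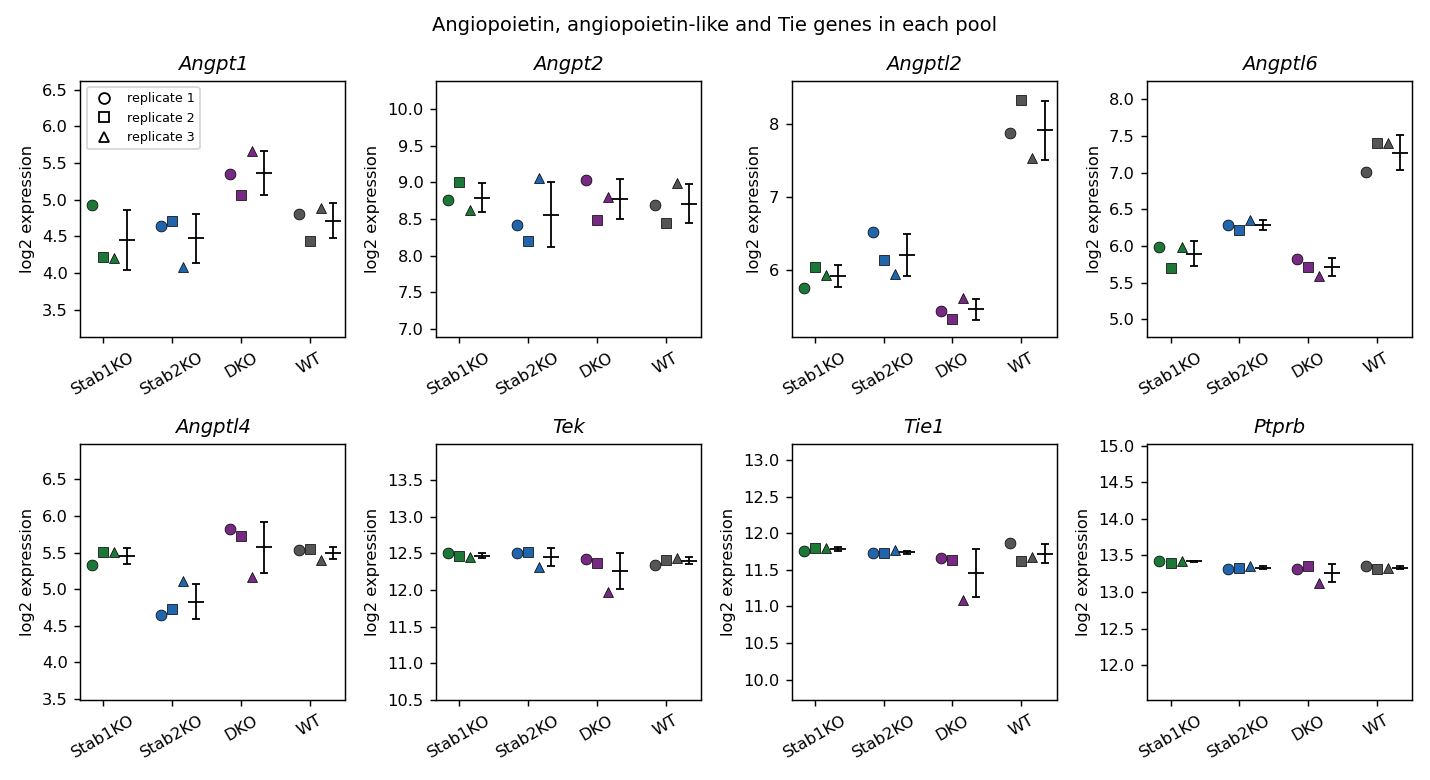
Log2 expression of the 8 genes in every pool, by genotype, with symbols for the replicate number and, beside them, the mean with its SD (n = 3 pools); every panel spans the same range of log2 units. Angptl2 and Angptl6 lie lower in each pool of the knockouts than in each WT pool, and Tek, Tie1 and Ptprb have their lowest pool in DKO replicate 3.

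Angptl2 was the gene of this group with the largest differences from WT. Its log2 values were 5.76, 6.05 and 5.94 in Stab1KO, 6.52, 6.15 and 5.95 in Stab2KO, 5.45, 5.34 and 5.62 in DKO, and 7.87, 8.33 and 7.54 in WT. Every knockout pool lay below every WT pool, and the DKO pools were the lowest. Lying wholly below WT was found for 4.73% of all genes in Stab1KO, 7.64% in Stab2KO and 15.1% in DKO. DKO lay wholly below Stab1KO for 12.8% of all genes and below Stab2KO for 13.8%. Angptl2 fell in each knockout, with log2 differences from WT of -2.00 ± 0.20 in Stab1KO (SE, adjusted p = 0.00104), -1.71 ± 0.20 in Stab2KO (adjusted p = 0.00664) and -2.44 ± 0.20 in DKO (adjusted p = 0.000151). These are 3.99-fold, 3.26-fold and 5.44-fold lower signals. In a bulk sample, fewer cells of a type and less RNA per cell cannot be told apart.

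Among the knockouts the order of Angptl2 was DKO, Stab1KO and Stab2KO from low to high. Neighbours in that order did not pass the test: DKO minus Stab1KO was -0.45 ± 0.20 (95% interval -0.88 to -0.01, adjusted p = 0.296) and Stab1KO minus Stab2KO was -0.29 ± 0.20 (-0.72 to 0.14, adjusted p = 0.863). DKO minus Stab2KO was -0.74 ± 0.20 (adjusted p = 0.0668), with every DKO pool below every Stab2KO pool, as for 13.8% of all genes.

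Angptl6 followed the same order. It measured 5.98, 5.69 and 5.99 log2 in Stab1KO, 6.28, 6.22 and 6.35 in Stab2KO, 5.82, 5.72 and 5.59 in DKO, and 7.0, 7.41 and 7.41 in WT. The WT pools stood clear of all others, and the Stab2KO pools lay between them and the pools lacking Stab1. Lying wholly below Stab2KO was found for 6.59% of all genes in Stab1KO and 13.8% in DKO. Its log2 differences from WT were -1.39 ± 0.13 in Stab1KO (adjusted p = 0.000617), -0.99 ± 0.13 in Stab2KO (adjusted p = 0.00899) and -1.56 ± 0.13 in DKO (adjusted p = 0.000151), or 2.62-fold, 1.99-fold and 2.95-fold lower. Without Stab2KO replicate 2 the difference in Stab2KO was -0.96 and no longer passed (adjusted p = 0.0515). With the 6 arrays of Stab2KO and WT alone, neither Angptl6 (-0.99, adjusted p = 0.0686) nor Angptl2 (-1.71, adjusted p = 0.0767) passed.

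Stab1KO and DKO overlapped for Angptl6, with a difference of -0.18 ± 0.13 (95% interval -0.45 to 0.10, adjusted p = 0.534). DKO was lower than Stab2KO, with a difference of -0.57 ± 0.13 (adjusted p = 0.0389). That call was lost when any 1 of 9 arrays was left out (all DKO and Stab2KO pools, WT replicates 2 and 3 and Stab1KO replicate 3), with differences of -0.63 to -0.51 and an adjusted p of up to 0.114. Stab1KO minus Stab2KO was -0.40 ± 0.13 and did not pass (adjusted p = 0.504).

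**Figure D2:**
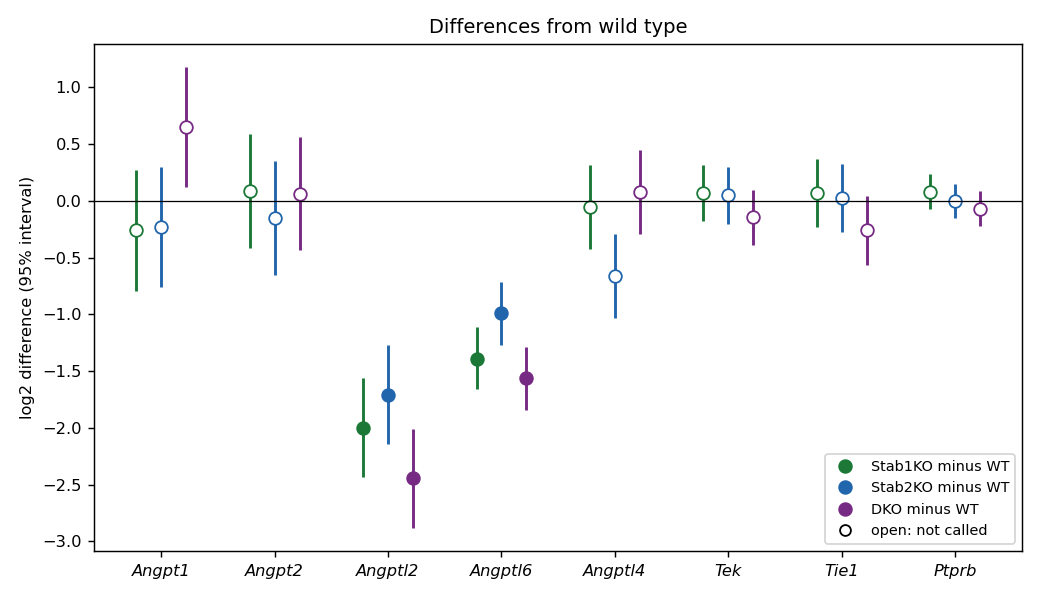
Log2 difference from WT of each gene in Stab1KO, Stab2KO and DKO with its 95% interval from the limma model; filled points passed the test and open points did not. The filled points are those of Angptl2 (-2.00, -1.71 and -2.44) and Angptl6 (-1.39, -0.99 and -1.56).

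For Angptl2 and Angptl6 the DKO differences were smaller in size than the sums of the single knockouts' differences on the log2 scale. The departure from additivity, which is the effect of Stab1 loss without Stab2 minus that with Stab2, was 1.26 ± 0.28 for Angptl2 (95% interval 0.65 to 1.87) and 0.81 ± 0.18 for Angptl6 (0.42 to 1.21). Neither passed over all genes (adjusted p = 0.12 and 0.115). Of the 8 genes 0 were called for this term, or 4 at an unadjusted p under 0.05, where 0.0488% of all genes were called. The DKO means of Angptl2 (5.47) and Angptl6 (5.71) lay near the array median of 5.11, and no detection calls were used here, so an unknown share of each is background.

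Stellate cells are the liver pericytes that store vitamin A, and they contact the sinusoidal endothelium. Of 18 genes of stellate cells and pericytes 9 fell in Stab1KO, 9 in Stab2KO and 11 in DKO, 0, 0 and 1 rose, and the medians were -1.25, -1.04 and -1.04. Over all genes, 0.293%, 0.22% and 1.05% were called lower. This list was chosen with earlier results of these data known, so its counts are a description and no independent support. The gene that rose in DKO, named after its value was seen, was the matrix gene Dpt (0.64 ± 0.12, adjusted p = 0.0288). The mean of the list ran from 6.42 to 6.70 log2 in Stab1KO, 6.85 to 6.93 in Stab2KO, 6.47 to 6.66 in DKO and 7.89 to 8.35 in WT. Bmp5, a bone morphogenetic protein gene, fell in all of them, by log2 differences of -3.32 ± 0.23 in Stab1KO, -2.52 ± 0.23 in Stab2KO and -3.70 ± 0.23 in DKO. Lrat, the gene of the retinol-esterifying enzyme of these cells, also fell, with -3.01 ± 0.26, -2.05 ± 0.26 and -3.68 ± 0.26 in the same order. Within WT, replicates 1 to 3 had list means of 7.89, 8.35 and 7.97, beside Angptl2 values of 7.87, 8.33 and 7.54 and Angptl6 values of 7.0, 7.41 and 7.41. Replicate 2 was also the WT pool with the highest means of Kupffer cell genes (9.61) and hepatocyte genes (9.05). The part of these cells in the falls of Angptl2 and Angptl6 was not tested.

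**Figure D3:**
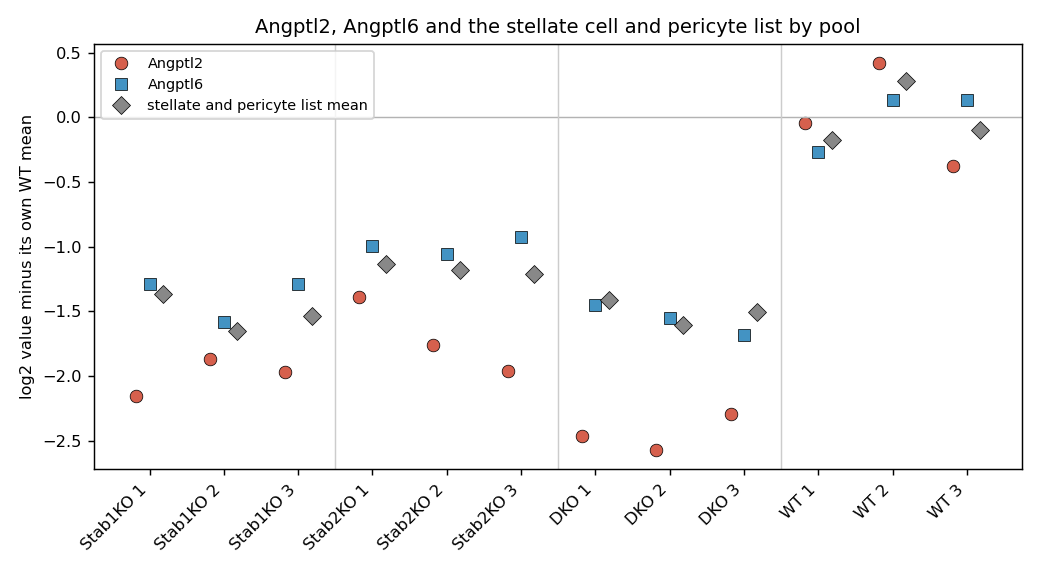
Log2 values of Angptl2 and Angptl6 and the mean of the 18 stellate cell and pericyte genes in each pool, each minus its own WT mean. All 3 lie below 0 in every knockout pool, between -1.39 and -2.57 for Angptl2, -0.92 and -1.68 for Angptl6 and -1.14 and -1.65 for the list.

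Likeness to other genes was measured as the root mean square difference over the 12 arrays of log2 values centred on each gene's mean, as a description with no test. Genes with placeholder symbols, such as Gm or Rik names, were left out before ranking. The 4 genes nearest to Angptl2 were the peptide receptor gene Vipr1 (0.237 log2), Gdf2, which encodes BMP9 (0.249), the parathyroid hormone receptor gene Pth1r (0.256) and the bone morphogenetic protein gene Bmp10 (0.283). Angptl2 itself varied by 0.951 on this scale. Gdf2 averaged 4.96 log2 in Stab1KO, 5.58 in Stab2KO, 4.66 in DKO and 7.16 in WT, and Vipr1 6.23, 6.60, 5.61 and 8.0.

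Nearest to Angptl6 were the matrix protein gene Adamtsl2 (0.182), the T-box factor gene Tbx20 (0.184), the cytoglobin gene Cygb (0.204) and Tnfrsf11b, which encodes the decoy receptor osteoprotegerin (0.224), with 0.619 for Angptl6 itself. Cygb, a member of the stellate list, averaged 7.35 log2 in Stab1KO, 7.82 in Stab2KO, 7.24 in DKO and 9.17 in WT. Angptl6 ranked number 27 among the genes nearest to Angptl2, and Angptl2 number 71 among those nearest to Angptl6, at a distance of 0.429.

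**Figure D4:**
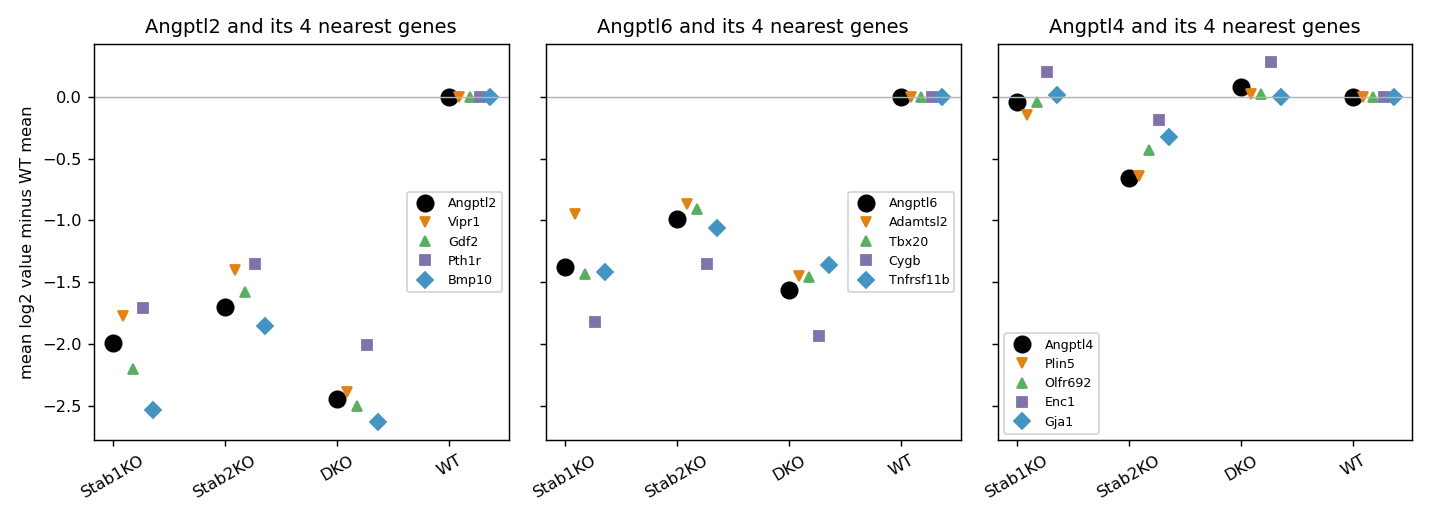
Group means of Angptl2, Angptl6 and Angptl4 and of the 4 genes nearest to each, minus the WT mean of the same gene (log2). The genes of the Angptl2 and Angptl6 panels lie below their WT mean in every knockout, and all genes of the Angptl4 panel are lowest in Stab2KO.

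Angptl4 had another pattern, with its lowest values in Stab2KO. It measured 5.32, 5.5 and 5.51 log2 in Stab1KO, 4.65, 4.73 and 5.11 in Stab2KO, 5.82, 5.73 and 5.17 in DKO, and 5.53, 5.54 and 5.40 in WT. Values of Angptl4 lay on either side of the array median of 5.11, so background may form part of them. The Stab2KO pools lay below all pools of the other genotypes, among which the groups overlapped. Taken pair by pair, Stab2KO lay wholly below WT for 7.64% of all genes. Stab1KO lay wholly above Stab2KO for 6.06% and DKO for 7.35%. Stab2KO minus WT was -0.66 ± 0.17 (95% interval -1.03 to -0.29) and did not pass over all genes (adjusted p = 0.258). It passed without DKO replicate 3, at the same difference (adjusted p = 0.049). With each array left out in turn, the difference ran from -0.8 to -0.57 and the adjusted p from 0.049 to 0.73.

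In DKO Angptl4 was higher than in Stab2KO by 0.74 ± 0.17 log2 (adjusted p = 0.0425), so 2 of the 8 genes, with Angptl6, were called between these groups, where 3.43% of all genes were. This call was lost without any 1 of 10 arrays, with differences of 0.62 to 0.74 and an adjusted p of up to 0.146. It held without DKO replicate 3 (0.94, adjusted p = 0.00942) and without Stab2KO replicate 3. Stab1KO minus Stab2KO was 0.61 ± 0.17 and did not pass (adjusted p = 0.426). Of the 8 genes 0 were called between the single knockouts, or 2 at an unadjusted p under 0.05, where 0.106% of all genes were called.

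The gene nearest to Angptl4 was Plin5 (0.152 log2, with 0.347 for Angptl4 itself), which encodes a lipid droplet protein. Plin5 averaged 5.54 log2 in Stab1KO, 5.05 in Stab2KO, 5.71 in DKO and 5.69 in WT. The olfactory receptor gene Olfr692 (0.185), Enc1 (0.193) and the gap junction gene Gja1 (0.202) came next, and their group means were also lowest in Stab2KO. Kupffer cell genes, those of the resident macrophages of the liver, were also low in Stab2KO: their mean ran from 7.12 to 7.60 there, against 7.50 to 9.61 in WT. Of the 12, 0 were called in limma and 9 had an unadjusted p under 0.05. Hepatocyte genes averaged 7.63 to 8.04 in Stab2KO and 7.85 to 9.05 in WT, with 7.91 to 9.15 in Stab1KO and 7.35 to 8.41 in DKO. Ass1 was the 1 gene of 11 called by limma in Stab2KO against WT (-2.54 ± 0.33, adjusted p = 0.00961), and it was also called lower in DKO. The part of either cell type in the Angptl4 values was not tested.

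Around Angptl4 no gene of its known pathway passed the test. Of 14 genes of lipoprotein lipase and its control, 0 were called against WT in any knockout (limma, with 0, 2 and 3 at an unadjusted p under 0.05 in Stab1KO, Stab2KO and DKO), with medians of 0.02, -0.10 and -0.07. Lpl, the lipase that Angptl4 inhibits, averaged 7.03 ± 0.67 log2 in Stab1KO, 6.40 ± 0.26 in Stab2KO, 7.04 ± 0.89 in DKO and 7.83 ± 1.14 in WT. Its difference in Stab2KO was -1.43 ± 0.57 (adjusted p = 0.57). Lipg, the endothelial lipase gene, differed by -0.16 ± 0.48, -0.25 ± 0.48 and 0.44 ± 0.48. Among other angiopoietin-like genes, Angptl7 differed from WT by 0.36 ± 0.12 in Stab1KO (adjusted p = 1.0) and Angptl1 by 0.28 ± 0.08 in DKO (adjusted p = 0.122), and neither passed the test.

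Of the Tie2 ligands, Angpt1 was highest in DKO without passing the test. It measured 4.92, 4.21 and 4.21 log2 in Stab1KO, 4.64, 4.71 and 4.08 in Stab2KO, 5.35, 5.07 and 5.66 in DKO, and 4.81, 4.43 and 4.89 in WT. Each DKO pool lay above the 9 pools of the other genotypes, which overlapped. Taken pair by pair, DKO lay wholly above WT for 8.99% of all genes, above Stab1KO for 6.89% and above Stab2KO for 7.35%. DKO exceeded WT by 0.65 ± 0.24 (95% interval 0.12 to 1.18, adjusted p = 0.207), Stab1KO by 0.91 ± 0.24 (adjusted p = 0.10) and Stab2KO by 0.88 ± 0.24 (adjusted p = 0.0708). The last value passed without Stab1KO replicate 1 (adjusted p = 0.049) and was 0.73 without DKO replicate 3 (adjusted p = 0.15).

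Values of Angpt1 lay on either side of the array median, so background may form part of them. Angpt1 is a product of mural cells, and the 2 mural lists went different ways in DKO. The mean of the 6 smooth muscle genes ran from 5.86 to 6.42 log2 in DKO and 5.55 to 5.65 in WT, while the stellate list was lower. Limma called 0 of the 6 between these groups (3 at an unadjusted p under 0.05). The smooth muscle mean ran from 5.33 to 5.62 in Stab1KO and 5.65 to 6.49 in Stab2KO. Its highest value of all pools was in Stab2KO replicate 3, the pool with the lowest Angpt1 (4.08). The means of the bile duct, immediate early and large-vessel lists were, like Angpt1, higher in each DKO pool than in each pool of the other genotypes. The mean of the bile duct list ran from 6.22 to 6.84 log2 in Stab1KO, 6.52 to 6.91 in Stab2KO, 7.49 to 8.12 in DKO and 6.27 to 6.88 in WT. That of the immediate early list ran from 9.70 to 9.98, 9.87 to 10.67, 10.90 to 11.27 and 9.80 to 10.31 in the same groups. For the large-vessel list the ranges were 9.52 to 9.7, 9.63 to 9.75, 9.84 to 9.92 and 8.93 to 9.63. The part of smooth muscle cells, bile duct cells, large-vessel endothelium or immediate early induction in the Angpt1 values was not tested.

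Angpt2 showed no difference that the test could separate from the spread between pools. Its values ran from 8.62 to 9.01 log2 in Stab1KO, 8.20 to 9.06 in Stab2KO, 8.49 to 9.03 in DKO and 8.45 to 8.99 in WT, so all groups overlapped. The differences from WT were 0.09 ± 0.23 in Stab1KO, -0.15 ± 0.23 in Stab2KO and 0.06 ± 0.23 in DKO. Their 95% intervals reached from -0.41 to 0.59, -0.65 to 0.35 and -0.43 to 0.56. Differences within these bounds could not be told from none. Within each array, Angpt2 minus Angpt1 averaged 4.35 ± 0.48 log2 in Stab1KO, 4.09 ± 0.79 in Stab2KO, 3.41 ± 0.27 in DKO and 4.00 ± 0.11 in WT (SD, n = 3), a comparison of change between the genotypes and not of amounts of the transcripts.

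The receptors gave high and even signals. Tek ran from 12.45 to 12.51 log2 in Stab1KO, 12.31 to 12.52 in Stab2KO, 11.97 to 12.43 in DKO and 12.35 to 12.44 in WT. Tie1 ran from 11.76 to 11.80, 11.73 to 11.77, 11.08 to 11.66 and 11.62 to 11.86 in the same groups. For each receptor the lowest of the 12 pools was DKO replicate 3, the pool with the high neutrophil signal.

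Tek differed from WT by 0.07 ± 0.11 in Stab1KO, 0.05 ± 0.11 in Stab2KO and -0.14 ± 0.11 in DKO, with 95% intervals of -0.18 to 0.32, -0.20 to 0.30 and -0.39 to 0.10. The differences of Tie1 were 0.07 ± 0.14, 0.03 ± 0.14 and -0.26 ± 0.14 (-0.23 to 0.37, -0.27 to 0.33 and -0.56 to 0.04). Without DKO replicate 3 the DKO difference was -0.0 for Tek (adjusted p = 0.993) and -0.07 for Tie1 (adjusted p = 0.803). Ptprb, the phosphatase gene, spanned 13.40 to 13.42 log2 in Stab1KO, 13.31 to 13.35 in Stab2KO, 13.13 to 13.35 in DKO and 13.31 to 13.35 in WT, and its DKO difference was -0.07 ± 0.07 (-0.22 to 0.09). Its adjusted p was 0.685, and without DKO replicate 3 the difference was -0.0 (adjusted p = 0.996).

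Between DKO and Stab1KO, 0 of the 8 genes were called by limma, or 3 at an unadjusted p under 0.05, where 0.948% of all genes were called. The 3 were Angpt1, Angptl2 and Tie1. Tie1 was lower by -0.33 ± 0.14 there (adjusted p = 0.271), and by -0.14 without DKO replicate 3 (adjusted p = 0.54).

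Downstream of Tie2 most genes did not pass the test. Of 18 adaptor and signalling genes, Nck1 alone was called against WT, in DKO. Between DKO and Stab2KO the adaptor gene Grb7, named after the call was seen, was the 1 called gene of the list, and it was higher. Nck1, an adaptor that docks to phosphorylated receptors, averaged 8.48 ± 0.09 log2 in Stab1KO, 8.44 ± 0.06 in Stab2KO, 8.16 ± 0.03 in DKO and 8.51 ± 0.04 in WT. It fell by 0.35 ± 0.07 in DKO (adjusted p = 0.0338), a call lost without DKO replicate 1 or 2, Stab2KO replicate 1 or any 1 WT array (-0.37 to -0.34, adjusted p of up to 0.111). It was also lost with limma's trend and robust options (adjusted p = 0.0716), with the DKO and WT arrays alone (adjusted p = 0.101) and with a minimum difference of 0.5. The medians of the list were -0.02, -0.05 and -0.04, and 1, 1 and 6 genes had an unadjusted p under 0.05 in Stab1KO, Stab2KO and DKO.

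Of 9 surface partners of the receptors and ligands, which include the junction genes Cdh5 and Pecam1, the integrin chains and the proteases that shed the Tie receptors, Itgb3 alone was called against WT, in Stab2KO. Itgb3, the integrin beta-3 chain, averaged 9.23 ± 0.10 log2 in Stab1KO, 8.36 ± 0.06 in Stab2KO, 9.07 ± 0.19 in DKO and 9.15 ± 0.20 in WT. It fell by 0.79 ± 0.12 in Stab2KO (adjusted p = 0.0214). The call was lost without WT replicate 1 or 3 or any 1 Stab2KO array, with differences of -0.82 to -0.71 and an adjusted p of up to 0.106, and with the Stab2KO and WT arrays alone (-0.79, adjusted p = 0.0928). Itgb3 was also the 1 called gene of the list, and lower in Stab2KO, when Stab1KO or DKO was compared with Stab2KO. Its differences in Stab1KO and DKO were 0.08 ± 0.12 and -0.08 ± 0.12.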

How the data were processed

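The authors deposited a table of log2 signals with a row per Entrez gene, and the submitters' processing notes name RMA (robust multi-array average). The sources used here give neither its version nor a genome build. The authors' table had 24973 rows, and the sorted values of its 12 arrays differed by at most 0.001872 at any rank. Of the rows, 24015 had 1 symbol in the platform annotation, 0 had several, 559 were named through RefSeq by gene identifier and 399 stayed unnamed. For symbols on several rows a platform-named row went before a RefSeq-named one, and then the row with the highest mean was kept, which left out 4.

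Genes were tested with limma 3.58.1 under R 4.3.3, as 4 group means over 12 arrays, moderated two-sided tests and Benjamini-Hochberg adjustment over 24570 genes within each of 7 contrasts. The procedure was tested on simulated data. The number of arrays limits the precision. The alternatives were a replicate block, a low signal filter, trend and robust options, array weights, renormalization, every row tested, a minimum difference of 0.5, the compared arrays alone and each array left out. All 8 genes passed the low signal filter (above the 40th percentile of gene means).

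The named genes are the 8 members, up to 3 called genes of each pathway list or 2 uncalled ones, up to 2 stellate genes, and the 4 genes nearest to each called member. The members and lists were chosen with earlier results of these data known.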

Additional observations from a re-analysis of the deposited data

How the results depend on the processing

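Over 56 pairs of gene and contrast, 1112 values under an alternative were compared with the reported ones, and 0 called values changed sign. Of these values 27 lost a call and 7 gained one. The counts of called genes among the 8 stayed at 2 under every alternative run for Stab1KO and for DKO against WT. For Stab2KO against WT the count of 2 was 0 with the compared arrays alone and 1 to 3 with an array left out, the 3 being Angptl2, Angptl4 and Angptl6 without DKO replicate 3. For DKO against Stab2KO the count of 2 was 0 with the replicate block, 1 with trend and robust options, 0 with the compared arrays alone and 0 to 2 with an array left out. For the departure from additivity the count of 0 was 2 with array weights (Angptl4 and Angptl6, adjusted p = 0.03 and 0.0454) and 0 to 1 with an array left out, when Angptl4 passed without DKO replicate 3 (0.99, adjusted p = 0.0496). Array weights also called Angptl4 in Stab2KO against WT (-0.73, adjusted p = 0.0163) and Angptl2 in DKO against Stab2KO (-0.85, adjusted p = 0.0337). The cause was not tested.

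Over all genes, the 443 calls of DKO against WT were 1155 with array weights and 101 with the compared arrays alone, and the 74 of Stab2KO against WT were 153 and 29. The 233 of DKO against Stab1KO were 469 and 16, the 843 of DKO against Stab2KO were 1851 and 4, and the 26 between the single knockouts were 41 and 15. A minimum difference of 0.5 left 538 of the 843. The 12 calls for the departure from additivity were 202 with array weights, 37 with trend and robust options, 30 with the filter and 6 with the replicate block. With an array left out, calls ran from 50 to 87, 35 to 100, 130 to 524, 24 to 363, 45 to 871, 12 to 47 and 3 to 114 in Stab1KO, Stab2KO and DKO against WT, DKO against Stab1KO and Stab2KO, Stab1KO against Stab2KO and the departure.

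The labels give the groups the same replicate numbers. Arrays of the same number correlated at -0.06 to 0.292 across genes after removal of group means, and 4 of 18 pairs were above 0.1. Pairing was taken as shown only where every pair was above 0.1, so the numbers were not taken to pair the pools. An array was nearest to its own number in 23 of 36 cases, where 12 would be the count if the numbers carried nothing, which is a hint of shared numbers from the data and not from the design. With the replicate block Angptl4 and Angptl6 in DKO against Stab2KO were not called (adjusted p = 0.0669 and 0.0592), nor was Nck1 in DKO against WT (adjusted p = 0.0516).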
